A study of Mus musculus with 10 samples.

Results

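Fibrinolysis and anticoagulant genes of the vessel wall were followed through the differentiation of mouse ES cells into blood progenitors. The 8 genes Plau, Plat, Plaur, Thbd, Procr, Tfpi, Tfpi2 and F3 were found by their symbols in the expression matrix of the authors and by the matching Ensembl identifiers in the count tables. All 8 were among the 55487 genes of these tables, and all 8 were among the 22596 genes that passed the filter on low counts. The study sequenced nuclear RNA from the mouse ES line HM-1 and from populations sorted while it differentiated in serum, giving 5 stages with 2 libraries each. ES cells were kept undifferentiated on gelatin with LIF. HB are FLK1+ cells, a precursor of endothelium and blood, taken with magnetic beads from embryoid bodies after 3 d. HE1, HE2 and HP cells were sorted after a further 2.5 d of blast culture with VEGF, IL-6 and medium conditioned by an endothelial cell line. HE1 was KIT+ TIE2+ CD41−, HE2 was KIT+ TIE2+ CD41+, and HP was KIT+ TIE2− CD41+. All stages descend from 1 ES cell line, no stage carries a gene mutation or drug treatment that another lacks, and the levels of Kdr, Kit, Tek and Itga2b may depend on the sorts for their products FLK1, KIT, TIE2 and CD41. Counts assigned to genes per library were, for ES, 58782055 and 36443697, for HB, 29055246 and 36045700, for HE1, 24920434 and 26777156, for HE2, 33109887 and 32917684, and for HP, 45097069 and 29592213. Levels are given as CPM, counts scaled to a common library size with TMM factors, with replicate 1 named before replicate 2. A count of 3, the floor, is 0.0532 to 0.126 CPM in these libraries and covers counting error only.

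Endothelial cells keep blood fluid with several linked systems. Urokinase (Plau) and tissue plasminogen activator (Plat) turn plasminogen into plasmin, which dissolves fibrin, and the urokinase receptor (Plaur) holds urokinase at the cell surface, where plasmin formation is also known to serve cell migration. Thrombomodulin (Thbd) binds thrombin and switches it from a clotting enzyme to an activator of protein C, which is presented by the endothelial protein C receptor (Procr). Tissue factor (F3) starts coagulation, unlike the other genes, and tissue factor pathway inhibitor (Tfpi) blocks its complex with factor VIIa, whereas Tfpi2, a relative of Tfpi, is a matrix-bound inhibitor of plasmin and other serine proteases.

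The sorted stages were described with 14 endothelial markers. They include Tek and Kdr, the genes of the sort antigens TIE2 and FLK1, with Kdr at 956 and 1284 CPM in HB. The summed level of all 14 was 1397 and 1685 CPM (HB), 5981 and 3523 (HE1), 3863 and 2340 (HE2) and 1183 and 1200 (HP), against 272 and 283 in ES. Of the 14 markers, 11 were higher in HE1 than in HB and none was lower. VE-cadherin (Cdh5), which joins endothelial cells, rose from 109 and 87.6 CPM in HB to 1430 and 797 in HE1 and was 862 and 412 in HE2, and 118 and 179 in HP. The most abundant marker was Cdh5 in both HE1 libraries and Kdr in both HB, HE2 and HP libraries. The only endothelial marker at 0 in a library was Emcn, in ES replicate 2. Endothelial RNA was thus highest on average in HE1, with HE2 replicate 1 above HE1 replicate 2, and was still measured in HP, where 13 of the 14 markers were lower than in HE1. A lower level in a sorted population can come from fewer cells that hold the RNA or from less RNA per cell, and these cannot be told apart here.

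Libraries of the same stage were not alike in their makeup. HE2 replicate 1 held more endothelial RNA than replicate 2, as given above, and less of the 10 hematopoietic markers, with a sum of 1124 against 1569 CPM. HE1 replicate 2 held more RNA of 6 ES cell markers, with a sum of 86.6 against 8.83 CPM in replicate 1, and more of 8 smooth muscle and stromal markers, with a sum of 1818 against 1002 CPM. Across genes, Pearson's r (log2 CPM) of replicate 1 with replicate 2 was 0.994 for ES, 0.988 for HB, 0.967 for HE1, 0.983 for HE2 and 0.983 for HP. The spread exceeded counting error in every stage, but counting error leaves out variation between separate libraries, so that this says nothing about makeup. No libraries were identical.

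All 8 genes were higher in HE1 than in HB. HB differs from HE1, HE2 and HP in culture time, medium and sort method as well as in cell type, and these cannot be told apart here. Genes were called at an adjusted p under 0.05 in the quasi-likelihood F test of edgeR and a change of at least 2-fold, and by this rule 12.7% of tested genes rose and 8.19% fell in HE1. Without HB replicate 1 or HB replicate 2, 6 of the 8 genes were called higher, where 7.65% and 6.03% of all genes were. The median log2 fold change of the 8 genes was 3.36, against 0.04 over all tested genes. None of the 8 was lower in HE1, nor was any at an unadjusted p under 0.05, in limma-voom or in DESeq2. Their summed level was 36.3 and 35.3 CPM in HB and 209 and 205 in HE1, and in each of the 8 genes both HE1 libraries lay above both HB libraries.

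**Figure D1:**
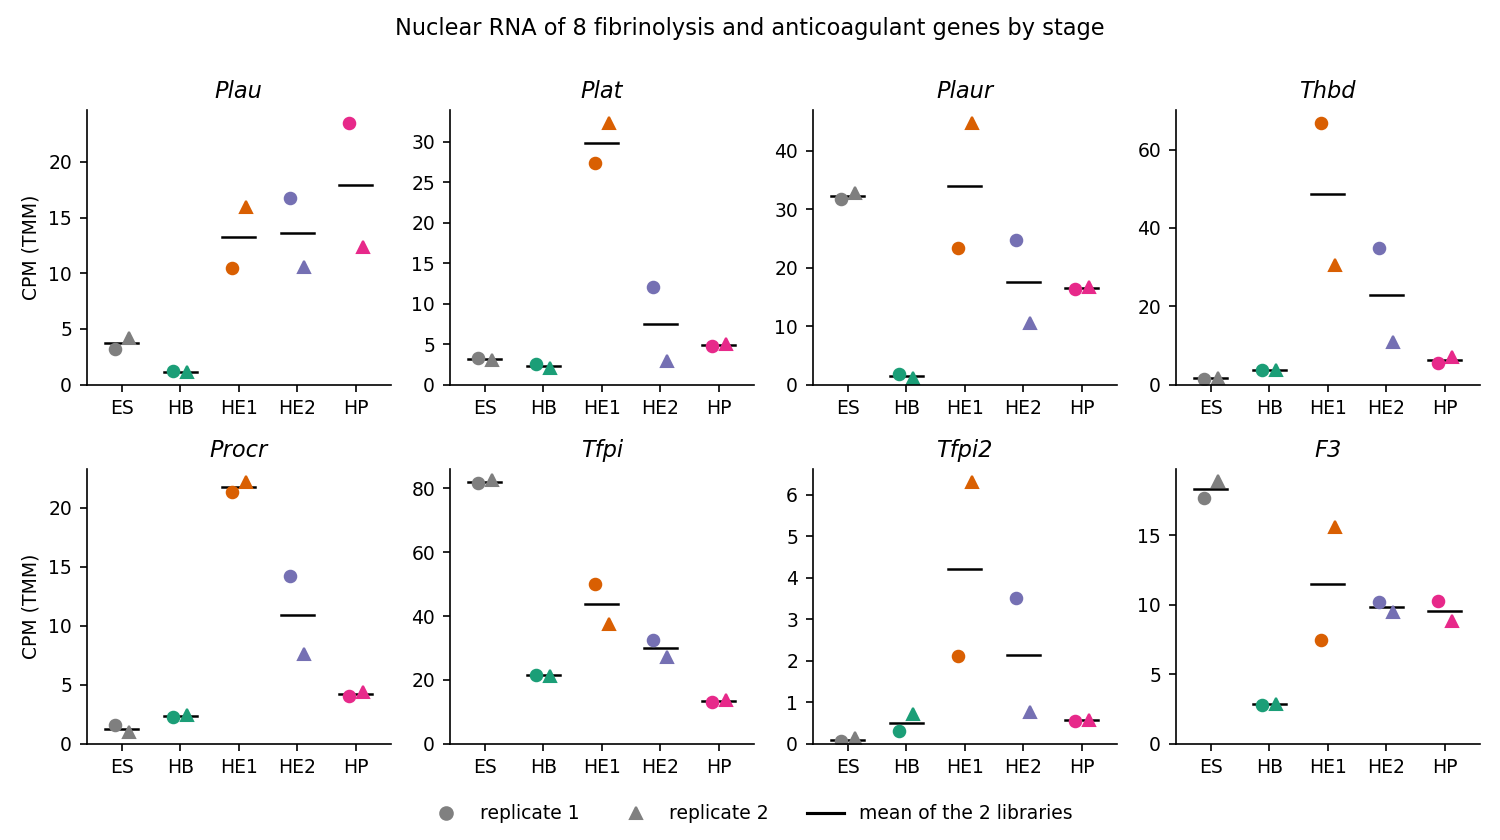
Level of each of the 8 genes in CPM (y axes, linear, from 0) in the libraries of the 5 stages (x axes). Circles are replicate 1, triangles replicate 2 and bars their mean. HE1 lies above HB in every panel, Plau stays at 10.5 CPM or above from HE1 to HP, and Tfpi and F3 are highest in ES.

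Urokinase rose from HB to HE1 and was not called lower at any later step. Plau (ENSMUSG00000021822) lies on chr14:20836660-20843385 of mm10 on the plus strand. It was at 1.22 and 1.10 CPM (HB), 10.5 and 16.0 (HE1), 16.7 and 10.6 (HE2) and 23.5 and 12.4 (HP), with 3.21 and 4.21 in ES. The HB libraries were the lowest, and the libraries of HE1, HE2 and HP overlapped, with the highest level in HP replicate 1. Plau was 11.4-fold higher in HE1 than in HB (log2 fold change 3.51 ± 0.41 SE, adjusted p = 0.000183) and 15.5-fold higher in HP than in HB (3.95 ± 0.41, adjusted p = 5.42e-05). Because the authors had listed Plau among genes activated between HB and HE with the same libraries, its rise is not independent evidence of that direction. The log2 fold change of HP against HE1 was 0.44 with a 95% interval of −0.34 to 1.22, so that a change of either direction within this range was not resolved. It turned to −0.08 without HP replicate 1. In HE1, HE2 and HP the library with more Plau also had more RNA of the stromal markers, whose part in the level was not tested.

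Tissue plasminogen activator was highest in HE1. Plat (ENSMUSG00000031538, chr8:22757727-22782844, plus strand) was at 2.58 and 2.00 CPM (HB), 27.5 and 32.4 (HE1), 12.1 and 2.95 (HE2) and 4.74 and 5.05 (HP). HE1 was the only stage in which both libraries were high, and the HP level lay between those of the HE2 libraries. The gene rose 13.1-fold from HB to HE1 (log2 fold change 3.71 ± 0.53, adjusted p = 0.000618). It then fell by 1.99 ± 0.48 on the log2 scale from HE1 to HE2 (adjusted p = 0.0289) and was lower in HP than in HE1 by 6.11-fold (adjusted p = 0.00441). The fall to HE2 was lost without HE1 replicate 2, with a log2 fold change of −1.87 and an adjusted p of 0.117, and with only the 4 libraries compared (−2.02, adjusted p = 0.0693). It was −3.32 without HE2 replicate 1 and −1.30 without HE2 replicate 2, both called.

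The urokinase receptor had the largest fitted rise among the 8 genes, although without HE1 replicate 2 it was 3.97 and that of Thbd was 4.16 on the log2 scale. Plaur (ENSMUSG00000046223, chr7:24462484-24475968, plus strand) was at 1.85 and 1.15 CPM (HB), 23.3 and 44.7 (HE1), 24.7 and 10.5 (HE2) and 16.4 and 16.7 (HP). It was also at 31.8 and 32.7 CPM in ES cells, within the range of HE1, so that HB was a low point between 2 stages with high levels. Plaur rose 22.8-fold from HB to HE1 (log2 fold change 4.51 ± 0.46, adjusted p = 9.03e-05), and HP remained 11.1-fold above HB (3.47 ± 0.45, adjusted p = 0.000226). Between HE1 and HP the log2 fold change was −1.04 ± 0.39 with an adjusted p of 0.0738, which missed the threshold. It was called lower in DESeq2 (−1.05, adjusted p = 0.0327), without the filter (−1.03, adjusted p = 0.000243), with only the 4 libraries (−1.09, adjusted p = 0.0193), and without HE1 replicate 1 (−1.41), HE2 replicate 1 (−1.02) or HE2 replicate 2 (−1.02). Without HE1 replicate 2 it was −0.50 and not called. HE1 replicate 2, with the higher Plaur level, was also the HE1 library with more RNA of ES and stromal markers, whose part in the level was not tested.

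The genes of the thrombomodulin and protein C pathway were highest in HE1. Thbd (ENSMUSG00000074743, chr2:148404466-148408188, minus strand, a gene of 1 exon) was at 3.67 and 3.83 CPM (HB), 66.8 and 30.5 (HE1), 34.8 and 10.9 (HE2) and 5.43 and 6.99 (HP). Procr (ENSMUSG00000027611, chr2:155751117-155755471, plus strand) was at 2.25 and 2.45 CPM (HB), 21.3 and 22.2 (HE1), 14.2 and 7.58 (HE2) and 4.01 and 4.35 (HP). For both genes the HP libraries lay below every HE1 and HE2 library and above both HB libraries. The stages from HB to HP did not overlap for Procr, whereas HE2 replicate 1 lay within the HE1 libraries for Thbd. Thbd rose 12.9-fold from HB to HE1 (log2 fold change 3.69 ± 0.53, adjusted p = 0.000633), and Procr rose 9.24-fold (3.21 ± 0.35, adjusted p = 0.000126). From HE1 to HP, Thbd fell by 2.97 ± 0.51 (adjusted p = 0.00252) and Procr fell by 2.38 ± 0.33 (adjusted p = 0.000971) on the log2 scale. Without HE1 replicate 1, the HE1 library with more Thbd, the rise of Thbd was 2.98 and its fall to HP −2.27, both still called. In ES cells Thbd was at 1.49 and 1.72 CPM and Procr at 1.58 and 0.975.

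The inhibitors of tissue factor and of plasmin had lower HE1 to HB ratios or lower levels. Tfpi (ENSMUSG00000027082, chr2:84432855-84476775, minus strand) was at 21.6 and 21.1 CPM (HB), 49.9 and 37.4 (HE1), 32.6 and 27.2 (HE2) and 13.2 and 13.7 (HP). These 4 stages did not overlap, in the order HE1, HE2, HB and HP, and all were below the 81.7 and 82.5 CPM of ES cells. Tfpi had the smallest rise from HB to HE1, at 2.04-fold (log2 fold change 1.03 ± 0.17, adjusted p = 0.00148), and was lower in HP than in HE1 by 3.25-fold (adjusted p = 0.000207). It was the only one of the 8 genes with a fitted level in HP below that in HB (log2 fold change −0.67 ± 0.17, adjusted p = 0.0129), which is under 2-fold and therefore not called. The call in HE1 lay at the 2-fold limit and was lost without ES replicate 1 (0.98), ES replicate 2 (0.98), HB replicate 1 (0.98), HB replicate 2 (0.97) or HE1 replicate 1 (0.76), each with an adjusted p of 0.0219 or lower.

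Tfpi2 (ENSMUSG00000029664, chr6:3962595-3988919, minus strand) was the least abundant of the 8 genes in both HE1 and both HP libraries by CPM per kilobase. Its counts were, for HB, 9 and 25, for HE1, 50 and 191, for HE2, 115 and 24, and for HP, 24 and 18, which is 0.297 and 0.704 CPM, 2.10 and 6.30, 3.50 and 0.762, and 0.547 and 0.572. The libraries differed several-fold within HE1 and within HE2, and HE2 replicate 2 was close to HP. Tfpi2 was 8.29-fold higher in HE1 than in HB (log2 fold change 3.05 ± 0.81, adjusted p = 0.0166) and 7.51-fold lower in HP than in HE1 (adjusted p = 0.0242). Both calls rested on few counts. The rise was lost without HB replicate 1 (2.52, adjusted p = 0.110), HB replicate 2 (3.77, adjusted p = 0.0546) or HE1 replicate 2 (2.05, adjusted p = 0.115), and the fall to HP without HE1 replicate 2 (−1.90, adjusted p = 0.179), HP replicate 1 (−2.85, adjusted p = 0.139) or HP replicate 2 (−2.91, adjusted p = 0.0839).

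Tissue factor, the initiator of coagulation, stayed near its HE1 level in HE2 and HP. F3 (ENSMUSG00000028128, chr3:121723537-121735048, plus strand) was at 2.81 and 2.87 CPM (HB), 7.44 and 15.6 (HE1), 10.2 and 9.46 (HE2) and 10.3 and 8.86 (HP). The HE2 and HP libraries all lay between the HE1 libraries, and the ES libraries were the highest with 17.7 and 18.9 CPM. F3 rose 4.06-fold from HB to HE1 (log2 fold change 2.02 ± 0.32, adjusted p = 0.00115) and was 3.37-fold higher in HP than in HB (1.75 ± 0.32, adjusted p = 0.00191). The log2 fold change of HP against HE1 was −0.27 with a 95% interval of −0.94 to 0.40, and it turned to 0.36 without HE1 replicate 2. The rise from HB was 1.39 without the same library and still called. That library had the higher F3 level and more ES marker RNA, whose part was not tested.

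HE2 was compared with HE1 to see how the genes behave when CD41 appears on hemogenic endothelium. Plat was the only 1 of the 8 genes called lower, where 5.39% of all tested genes were lower, and none was called higher in edgeR, limma-voom or DESeq2, where 3.26% of all genes were higher in edgeR. The median log2 fold change of the 8 genes was −0.97, against −0.08 over all tested genes, and 7 of the 8 fitted values were below 0. This median was −0.58 without HE1 replicate 2 and −1.59 without HE2 replicate 1. At an unadjusted p under 0.05, 5 genes differed, all lower in HE2, where 4442 of all tested genes were lower and 3549 higher. The log2 fold changes were −1.09 ± 0.47 for Thbd (adjusted p = 0.130), −0.95 ± 0.39 for Plaur (0.111) and −0.55 ± 0.17 for Tfpi (0.0561), and none of these passed, although Thbd was called lower without the filter (−1.07, adjusted p = 0.000446), among 2864 genes in all. Procr, with an adjusted p of 0.0598 and an interval of −1.70 to −0.30, did not pass either. It was called lower in limma-voom (−1.06, adjusted p = 0.0250) and DESeq2 (−1.01, adjusted p = 0.0184). At an unadjusted p under 0.05, 4268 of all tested genes were lower in limma-voom and 4202 in DESeq2, against 4442 in edgeR. In all 8 genes HE2 replicate 1 was above replicate 2, and their summed level was 149 and 79.9 CPM. HE2 replicate 1 was also the library with more endothelial and less hematopoietic marker RNA, and whether this accounts for the difference between the libraries was not tested. In this step the 14 endothelial markers had 13 fitted values below 0 and a median of −0.85, or −1.54 without HE2 replicate 1. All 6 ES cell markers were called lower, with a median of −3.81, or −0.84 without HE1 replicate 2. The medians were −1.45 for mesoderm, −1.39 for endoderm and 3.16 for hematopoietic markers, with −0.76 for endoderm without HE1 replicate 2. The part of these markers in the levels was not tested. Without HE2 replicate 1, 4 genes were called lower, namely Plat (−3.32), Plaur (−1.67), Thbd (−2.14) and Procr (−1.50), among 2118 genes in all. Without HE2 replicate 2, Plat was called among 98 genes, and without any single ES or HB library among 685 to 700. Without HE1 replicate 1, Plat (−2.09) and Plaur (−1.33) were called among 2927 genes, and without HE1 replicate 2 none of the 8 was called among 260 genes.

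**Figure D2:**
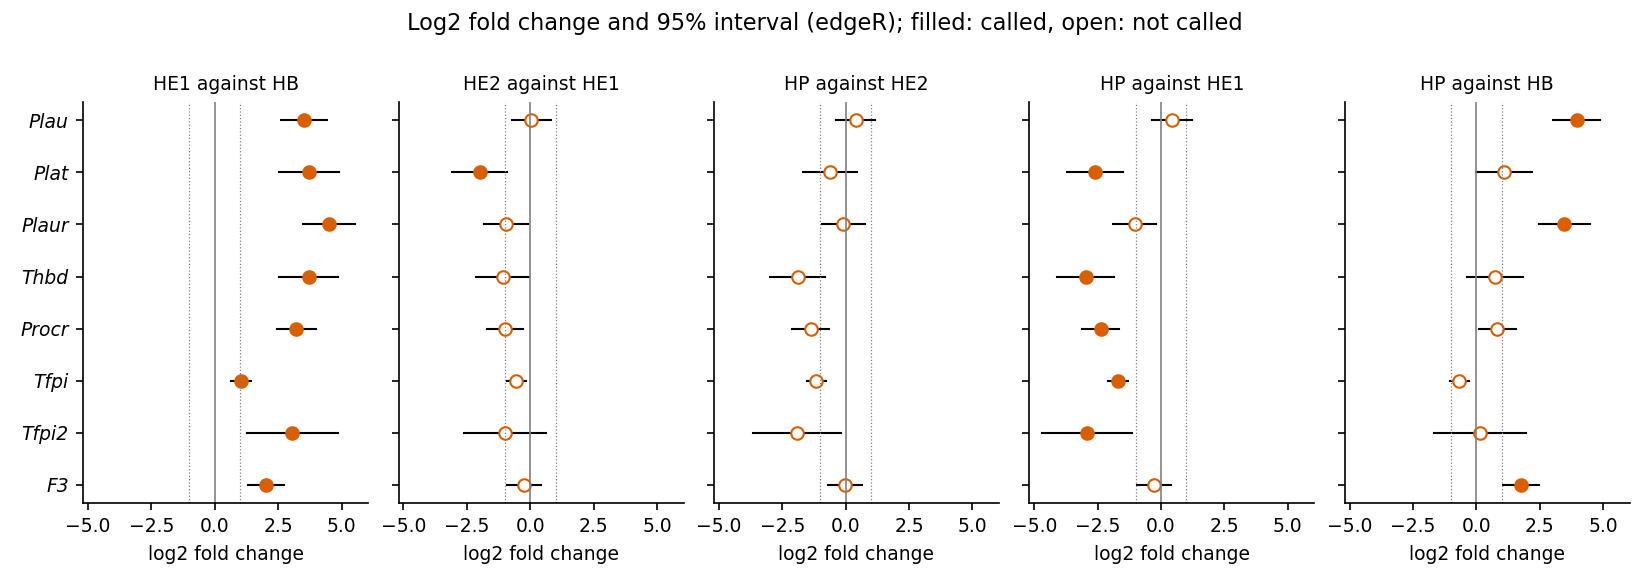
Log2 fold change of the 8 genes in 5 comparisons of stages (panels), as points with 95% intervals from the edgeR model. Filled points passed an adjusted p under 0.05 and 2-fold, and dotted lines mark 2-fold. All 8 points are filled in HE1 against HB, 1 in HE2 against HE1, none in HP against HE2, 5 in HP against HE1 and 3 in HP against HB.

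HP was compared with HE2, which differs in TIE2, and with HE1, which differs in both TIE2 and CD41. Against HE2, edgeR called 0 of the 8 genes in either direction, as it called 0% of all tested genes higher and 0% lower. At an unadjusted p under 0.05, 4 of the 8 genes were lower in HP, and so were 1113 genes in all, with 670 higher. limma-voom called 1 of the 8 lower among 27 genes in all, DESeq2 called 3 among 194, and edgeR without the filter called 4 among 389. The smallest adjusted p was that of Tfpi, with a log2 fold change of −1.15 ± 0.17 and an adjusted p of 0.0665. Without HE2 replicate 2, edgeR called Plat (−1.30), Thbd (−2.49), Procr (−1.76) and Tfpi (−1.28) lower among 475 genes in all, with 50 higher. Without HE1 replicate 1 or HE1 replicate 2 it called Tfpi (−1.15 in each) among 43 and 36 genes. The 14 endothelial markers include Tek, the gene of the TIE2 by which HP and HE2 were sorted apart. All 14 were lower in HP at an unadjusted p under 0.05, with a median of −1.82, or −0.94 without HE2 replicate 1. Without HE2 replicate 2, 12 of them were called lower and 3 of 10 hematopoietic markers higher, and their part in the levels of the 8 genes was not tested.

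Against HE1, 5 genes were lower in HP, namely Thbd, Tfpi2, Plat, Procr and Tfpi, where 11.2% of all tested genes were lower. None was higher in edgeR, limma-voom or DESeq2, nor at an unadjusted p under 0.05, where 5.35% of all genes were higher in edgeR. The shares of all genes were 6.86% lower and 3.87% higher without HE1 replicate 2, and 4.66% lower and 3.16% higher without HP replicate 1. The median log2 fold change was −2.04, against −0.02 over all tested genes. For each of the 5 genes both HP libraries lay below both HE1 libraries. Plau, Plaur and F3 were not called, and whether their change differed from that of the 5 genes was not tested. The summed level of the 8 genes was 78.1 and 68.6 CPM in HP.

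HP was also compared with HB. Plau, Plaur and F3 were higher in HP, where 10.1% of all tested genes were higher, and none of the 8 was called lower in edgeR, limma-voom or DESeq2, where 11.6% of all genes were lower in edgeR. Tfpi alone had a fitted value below 0 at an unadjusted p under 0.05. Thbd (0.72 ± 0.50, adjusted p = 0.315), Procr (0.83 ± 0.33, adjusted p = 0.0879), Plat (1.10 ± 0.50, adjusted p = 0.128) and Tfpi2 (0.14 ± 0.83, adjusted p = 0.927) were not called on the log2 scale. Plat was called higher without HE2 replicate 1 (1.10, adjusted p = 0.00513) and without HE2 replicate 2 (1.10, adjusted p = 0.00442), without the filter (1.11, adjusted p = 0.00399) and with only the 4 libraries (1.10, adjusted p = 0.0331). These comparisons share libraries and are not independent of each other.

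Set against each other on the scale of CPM per kilobase of exon, the leading genes changed from stage to stage and often between the libraries of a stage. In HB Tfpi led both libraries, with a mean of 3.91 CPM per kb, which was 43.9% of the sum over the 8 genes. In HE1 the order differed by library, with Thbd first in replicate 1 (17.9, against 8.92 for Plaur) and Plaur first in replicate 2 (17.1, against 8.18 for Thbd), while Procr was next in both (10.5 and 10.9). In HE2 Plaur (9.43) and Thbd (9.36) led replicate 1, and Tfpi (4.97) and Plau (4.46) led replicate 2. In HP Plau led replicate 1 (9.93, against 6.27 for Plaur) and Plaur led replicate 2 (6.39, against 5.22 for Plau), followed in both by F3, Tfpi, Procr and Thbd. In ES cells Tfpi, Plaur and F3 were first in this order in both libraries, with means of 15.0, 12.3 and 7.25. Among all tested genes, the mean level of Thbd per kilobase was at percentile 38.2, 79.4, 64.0 and 44.5 for HB, HE1, HE2 and HP, and that of Plau at 29.3, 62.0, 63.0 and 68.3.

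The 8 genes were further compared with one another over the 8 libraries from HB to HP. Pearson's r of log2 CPM, given as a description, was highest between Thbd and Procr with 0.97, between Plau and F3 with 0.95, and between Plaur and F3 with 0.95. It was lowest between Plau and Tfpi with 0.08 and between Tfpi and F3 with 0.19. These libraries share the 4 stages, so that r holds differences between stages as well as within them, and these parts were not separated. By the same measure, the genes most like each of the 8 were searched among 11445 genes with a mean of 9 CPM or more in 1 of the 4 stages. For Thbd they were Wipf3, Emcn and Mid2, with r of 0.997, 0.995 and 0.994, of which Emcn encodes the endothelial sialomucin endomucin. For Tfpi they were She (0.995), the venous receptor gene Ephb4 (0.983) and Coro2b (0.978), and for Procr they were Nfkbie (0.995), the collagen gene Col5a2 (0.995) and Tspan18 (0.992). For Plat they were Lrrk2 (0.992), Dlgap4 (0.991) and the procollagen protease gene Bmp1 (0.988), and for Tfpi2 they were Gpx8 (0.951), Cmtm8 (0.947) and Efemp2 (0.942). The genes most like Plau were Serpinb9 (0.995), periostin (Postn, 0.992) and thymosin beta 4 (Tmsb4x, 0.992), which were as high in HP as in HE1. For Plaur they were Trp53cor1 (0.997), Accs (0.994) and Inf2 (0.993), and for F3 they were Faap100 (0.991), Fam118b (0.990) and BC004004 (0.989). Over all 10 libraries, only 3 of these 24 genes remained, namely Tmsb4x for Plau, Emcn for Thbd and Cmtm8 for Tfpi2.

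The partners of the 8 genes were described with 6 lists of 60 other genes of fibrinolysis and coagulation, of which 45 were tested. In HE1 against HB, 17 of them were higher (37.8%, against 12.7% of all tested genes) and 6 lower (13.3%, against 8.19%), with a median log2 fold change of 0.93, and 10 were higher without HB replicate 2, where 6.03% of all genes were. Without HE1 replicate 1 the median of HE1 against HB was 0.58. In HE2 against HE1, 7 were higher (15.6%, against 3.26%) and 7 lower (15.6%, against 5.39%). Without HE1 replicate 2 or HE2 replicate 2, 4 were higher (1.56% and 1.33% of all genes) and 0 lower (1.10% and 0.401%). The number lower was 4 without ES replicate 1 or ES replicate 2 (2.89% and 2.87% of all genes), 3 without HB replicate 1 or HB replicate 2 (2.85% and 2.81%), and 11 without HE1 replicate 1 or HE2 replicate 1 (2927 and 2118 genes in all). Between HE1 and HP, 10 were higher in HP (22.2%, against 5.35%) and 9 lower (20.0%, against 11.2%), with 6 higher without HE1 replicate 2 and 5 without HP replicate 1, where 3.87% and 3.16% of all genes were. In HP against HB, 14 were higher (31.1%, against 10.1%) and 10 lower (22.2%, against 11.6%). In HP against HE2 edgeR called none in either direction, but 3 were lower without HE2 replicate 2, where 1.95% of all genes were. The lists are short, and many calls of single partners ended when 1 library was left out. The same shares of all genes apply to the counts of each list below. A count near its share says nothing particular about the list.

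Among 10 plasminogen system partners, 8 were tested, and the gene of plasminogen itself, Plg, was not. It had 3 counts in ES replicate 1, 1 in HB replicate 2, 2 in HE1 replicate 2 and 0 in the others, and plasminogen protein was not measured. In HE1 against HB, 1 partner was higher and 2 were lower, where 12.7% and 8.19% of all tested genes were. Annexin A2 (Anxa2), a cell surface receptor that assembles plasminogen and Plat, rose from 106 and 121 CPM in HB to 221 and 240 in HE1 (log2 fold change 1.02 ± 0.27, adjusted p = 0.0151) and was 146 and 69.9 in HE2, and 91.7 and 96.3 in HP. The call ended without ES replicate 1 (0.97), ES replicate 2 (0.97), HB replicate 1 (0.86), HB replicate 2 (1.08, adjusted p = 0.0665) or HE1 replicate 2 (0.96). Anxa2 was lower in HP than in HE1 (−1.29, adjusted p = 0.00656), but not without HP replicate 1 (−1.24, adjusted p = 0.0601). The scavenger receptor gene Lrp1, whose product clears protease and inhibitor complexes, fell from a mean of 603 ± 69.2 CPM (SD) in HB to 262 ± 25.5 in HE1. Eno1, a glycolytic enzyme that also binds plasminogen, fell from 1330 ± 147 to 330 ± 30.8 CPM between HB and HE1. In HE2 against HE1 3 partners were lower, Anxa2, Lrp1 and Mrc2, and none was higher, but none of the 3 was called without HE1 replicate 2 (−1.03, −0.90 and −0.58) or without HE2 replicate 2 (−0.64 and −0.69 for Anxa2 and Lrp1, adjusted p = 0.321 for Mrc2). Without HE2 replicate 1 Anxa2 was −1.70. Lrp1 (−0.98 to −0.97) and Mrc2 (adjusted p from 0.0546 to 0.0675) were also not called when any single ES, HB or HP library was left out. In HP against HE1 1 partner was higher, Plgrkt, which was not called without HE1 replicate 2 (0.80) or HP replicate 1 (0.95), and Anxa2 was lower, with 3 lower without HE1 replicate 1 and 2 without HP replicate 2.

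Of 10 protease inhibitors, 8 were tested. In HE1 against HB 2 inhibitors were higher and 3 lower, where 12.7% and 8.19% of all tested genes were. The lower ones include the matriptase inhibitors Spint2 (−1.90, adjusted p = 0.00646) and Spint1 (−1.68, adjusted p = 0.0142). Without HE1 replicate 2 Spint2 and Spint1 were −2.70 and −2.88, and without HB replicate 1 Spint1 was −1.57. Spint2 was at 21.8 and 22.6 CPM (HB), 3.41 and 8.38 (HE1), 2.89 and 2.76 (HE2) and 6.02 and 2.32 (HP), with both HB libraries above all later ones. Only 1 was higher in HE1 without ES replicate 1, ES replicate 2, HB replicate 1, HB replicate 2 or HE1 replicate 2. In HE2 against HE1 1 was higher and 1 lower, but none was called without HE1 replicate 2, HE2 replicate 2 or HP replicate 1, none was lower without any other ES, HB or HP library, and 4 were lower without HE1 replicate 1. In HP against HE1 1 was higher and 1 lower, with 3 lower without HE1 replicate 1 and none higher without HE1 replicate 2 or HP replicate 1.

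Of 11 natural anticoagulant partners, 9 were tested. Proc, the gene of protein C, was at 0 in every HB, HE2 and HP library and in HE1 replicate 1, with 0.165 CPM in HE1 replicate 2, so that the receptor rose without RNA of its ligand above a few counts. Protein S (Pros1), the cofactor of activated protein C, was at 29.0 and 32.7 CPM (HB), 116 and 67.4 (HE1), 96.3 and 80.7 (HE2) and 68.7 and 66.8 (HP). It was higher in HE1 than in HB (1.57 ± 0.23, adjusted p = 0.00064) and was also called higher in HP than in HB (1.14 ± 0.22, adjusted p = 0.00301). Gas6, a relative of protein S, rose from 62.0 and 65.1 CPM in HB to 268 and 241 in HE1 (2.00 ± 0.34, adjusted p = 0.00161) and was at 156 and 59.6 in HE2, and 46.6 and 49.8 in HP. In HE1 against HB 3 were higher, the other being antithrombin (Serpinc1, 2.33 ± 0.57, adjusted p = 0.0109), and none was lower. Of all tested genes, 12.7% were higher and 8.19% lower. Serpinc1 was not called without HB replicate 2 (2.09) or HE1 replicate 2 (1.64). In HE2 against HE1 2 were lower, Gas6 and the heparan sulfate polymerase gene Ext1, but neither was without HE1 replicate 2 (−1.32 and −1.10) or HE2 replicate 2 (−0.70 and −0.77), nor was Gas6 without HB replicate 1 (−1.22), HB replicate 2 (−1.22) or HE1 replicate 1 (−1.15). Without HE2 replicate 1 Gas6 was −2.07. In HP against HE1 3 were lower, including Gas6 (−2.40, adjusted p = 0.00104) and Ext1 (−1.51, adjusted p = 0.00155).

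Most coagulation factors had little RNA, and F5 and F13a1 rose between HE1 and HE2. Of 17 factors, 9 did not pass the filter on low counts, among them the fibrinogen genes Fga and Fgb and the genes of factors VII and IX. Von Willebrand factor (Vwf), an endothelial and platelet product, was at 14.9 and 14.3 CPM (HB), 40.7 and 39.9 (HE1), 50.8 and 13.7 (HE2) and 16.2 and 16.0 (HP). It rose from HB to HE1 (1.46 ± 0.43, adjusted p = 0.0263), which was not called without HB replicate 1 (1.43), HB replicate 2 (1.40), HE1 replicate 1 (1.40) or HE1 replicate 2 (1.48). Its lower level in HP than in HE1 (−1.32 ± 0.43, adjusted p = 0.0468) was not called when any single ES, HB, HE1 or HP library was left out (−1.34 to −1.28). Factor XIII subunit A (F13a1), a product of megakaryocytes and macrophages, was at 1.22 and 0.198 CPM (HE1), 18.2 and 27.6 (HE2) and 30.2 and 24.7 (HP), and rose from HE1 to HE2 by 5.07 ± 0.55 (adjusted p = 0.000759). Factor V (F5) rose from 11.4 and 3.50 to 37.5 and 41.5 CPM in the same step (2.42 ± 0.40, adjusted p = 0.00749), and factor X (F10) from 4.75 and 1.58 to 8.98 and 13.6 (1.85 ± 0.47, adjusted p = 0.0326). For F13a1, F5 and F10 the values were 6.86, 3.52 and 2.86 without HE1 replicate 1 and 4.22, 1.79 and 1.25 without HE1 replicate 2, where F10 was not called, nor was it without HE2 replicate 2 (1.53). Counts of called factors were 3 higher in HE1 against HB, with 1 without HB replicate 1 and 0 without HB replicate 2, 3 higher in HE2 against HE1, and 3 higher with 1 lower in HP against HE1. The median of the list was 1.13 in HE1 against HB, or 1.46 without Kng1, which was at 0 in both stages.

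All 6 thrombin and protease receptor genes were tested. F2r, which encodes the main thrombin receptor of endothelium, was at 280 and 330 CPM (HB), 1157 and 595 (HE1), 912 and 699 (HE2) and 516 and 531 (HP). It rose from HB to HE1 (1.52 ± 0.27, adjusted p = 0.00233), although without HE1 replicate 1 this was 0.92 and under 2-fold, and its log2 fold change of −0.74 ± 0.27 in HP against HE1 was not called (adjusted p = 0.0673). F2rl1, a receptor cleaved by trypsin-like proteases and the tissue factor complex, fell from HB to HE1 (−2.36 ± 0.38, adjusted p = 0.00123, and −3.20 without HE1 replicate 2). Its further fall to HE2 (−2.57) was not called without HE1 replicate 2 (−1.74) or HE2 replicate 2 (−2.10), and was −3.25 without HE2 replicate 1. F2rl2 (4.33 ± 0.52, adjusted p = 0.000216) and Gp5 (2.64 ± 0.50, adjusted p = 0.00294) were among the 4 receptors that rose in HE1, with 3.69 for F2rl2 without HE1 replicate 1 and 3.25 for Gp5 without HB replicate 1. In HE2 against HE1 2 rose, the platelet gene Gp1ba (2.21, adjusted p = 0.0082, and 2.86 without HE1 replicate 1) and F2rl2 (1.86), which was 2.48 without HE1 replicate 1 and not called without HE1 replicate 2 (1.43) or HE2 replicate 2 (1.83). In HP against HE1 3 were higher and 1, F2rl1 (−1.83), was lower. F2rl1 was not called without HE1 replicate 2 (−0.99) or HP replicate 2 (−1.51). Of the higher genes, F2rl2 (1.40) was not called without HE1 replicate 2 (0.97) or HP replicate 1 (1.14), nor was Gp5 (1.74) without HP replicate 1 (1.37).

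All 6 vessel wall antiplatelet genes were tested. Endothelial nitric oxide synthase (Nos3) was at 25.7 and 20.9 CPM in HB, 142 and 90.0 in HE1, and 1.51 and 12.6 in HP, with a mean of 22.4 ± 16.1 (SD) in HE2. Its rise in HE1 (2.32 ± 0.73, adjusted p = 0.0337) was not called without HB replicate 1 (2.41), HB replicate 2 (2.13), HE1 replicate 1 (1.91) or HE1 replicate 2 (2.61). It was lower in HP than in HE1 (−4.06 ± 0.79, adjusted p = 0.00506), with −3.19 without HP replicate 1 and −6.25 without HP replicate 2. Ptgs1, the cyclooxygenase of platelets, rose in both steps, by 2.10 ± 0.33 in HE1 (adjusted p = 0.00109) and by 2.37 ± 0.31 in HE2 (adjusted p = 0.00205). Ptgs2, the inducible cyclooxygenase, rose from 0.726 ± 0.469 CPM (SD) in HB to 14.8 ± 4.30 in HE1 (4.37 ± 0.41 SE, adjusted p = 5.03e-05), with 5.16 without HB replicate 1 and 3.77 without HB replicate 2. In HE1 against HB 4 of the 6 were higher and none was lower, where 12.7% and 8.19% of all tested genes were. In HP against HE1 Ptgs1 and the ecto-nucleotidase gene Nt5e were higher and 2 were lower, but Nt5e was not called without HE1 replicate 2 (1.58), HP replicate 1 (2.27) or HP replicate 2 (1.59).

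**Figure D3:**
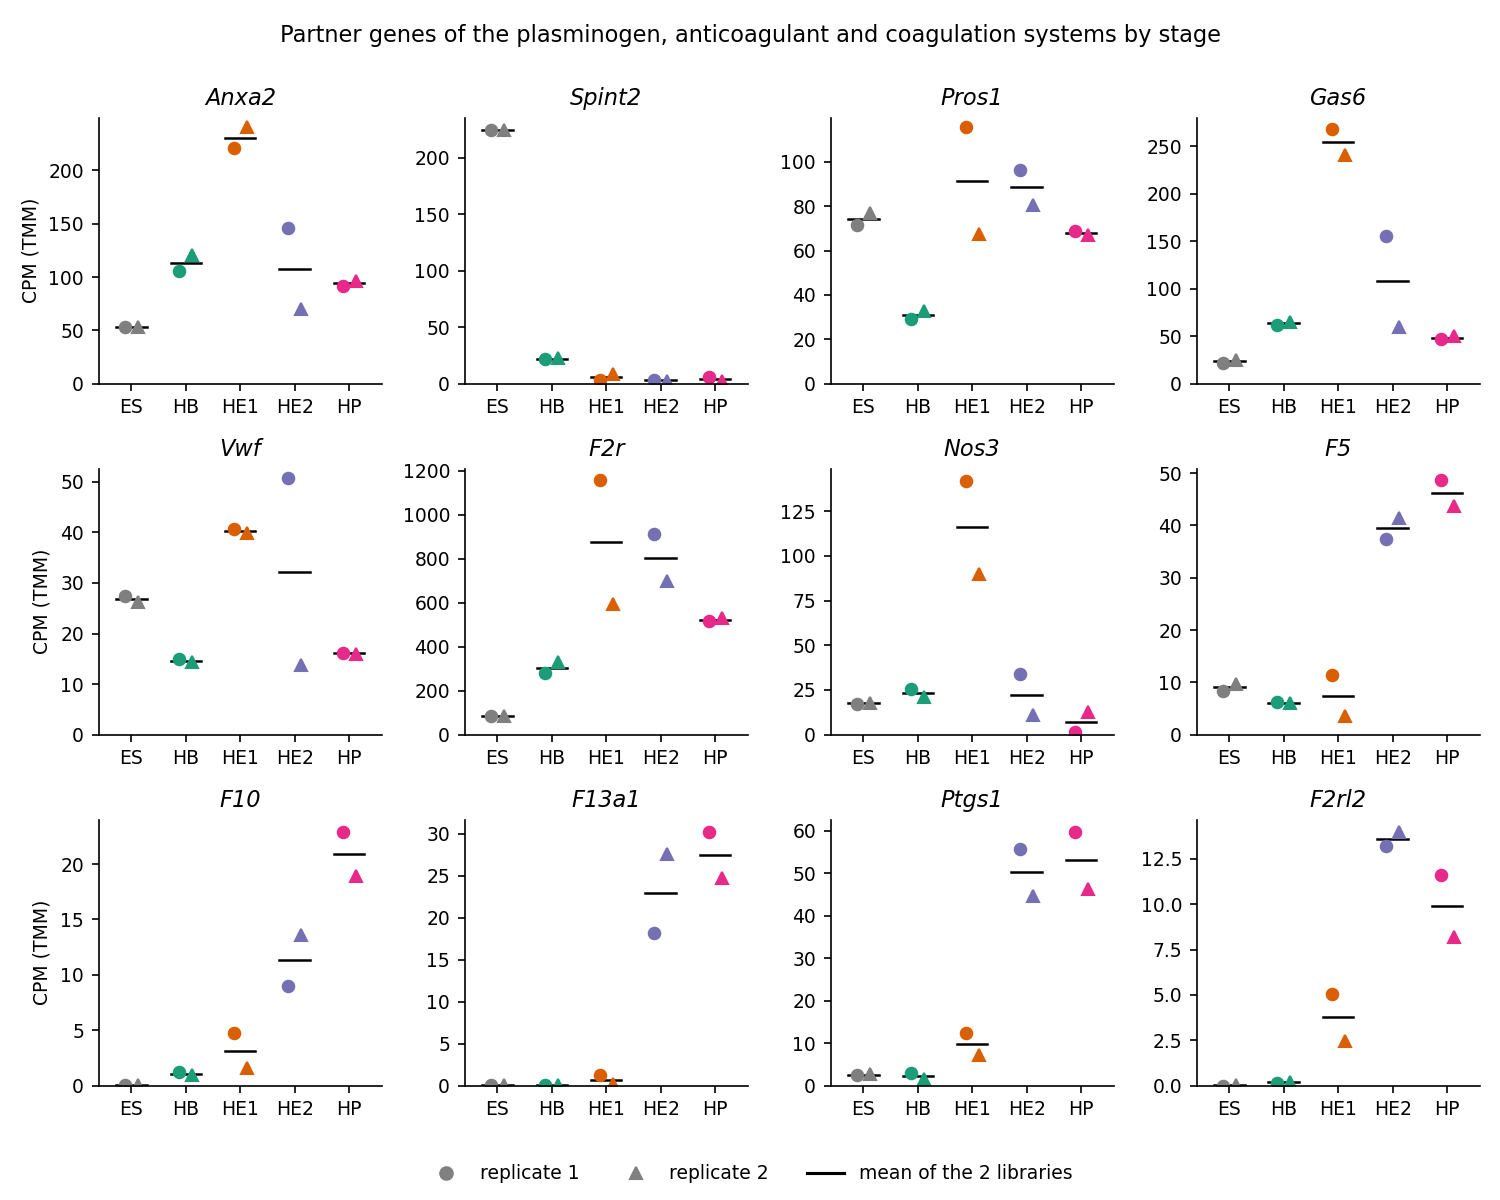
Level in CPM (y axes, linear, from 0) of 12 partner genes in the libraries of the 5 stages (x axes), drawn as for the 8 genes with circles for replicate 1, triangles for replicate 2 and bars for their mean. Gas6 and Nos3 peak in HE1, whereas the means of F5, F10, F13a1 and Ptgs1 are highest in HP, with an HE2 library above an HP library for F13a1 and Ptgs1, and none of the genes was called between HE2 and HP.

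Markers of other cell types were measured in the same libraries, and their part in the results was not tested. The 10 hematopoietic markers summed to 160 and 156 CPM (HB), 339 and 217 (HE1), 1124 and 1569 (HE2) and 1708 and 1408 (HP), and all 10 were higher in HE2 than in HE1. Their most abundant gene was Runx1 in HP and, in HE1, Itga2b, whose product CD41 is the sort antigen that separates HE2 from HE1. Ptprc and Cd53 were at 0 in HB replicate 1. The 8 smooth muscle and stromal markers summed to 116 and 113 CPM (HB), 1002 and 1818 (HE1), 1157 and 821 (HE2) and 1497 and 760 (HP), led by Acta2 or Col1a1 in all of these, with none at 0. Of these 8 markers, 6 rose from HB to HE1 and none was called between HE1 and HP. Their median log2 fold change in HP against HE1 was −0.20, or −0.44 without HE1 replicate 1 and 0.39 without HE1 replicate 2. Postn, among the genes most like Plau, belongs to these markers.

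The 6 ES cell markers, which bear on Tfpi, F3 and Plaur because these are high in ES cells, summed to 2646 and 2614 CPM in ES, 115 and 88.9 (HB), 8.83 and 86.6 (HE1), 4.57 and 3.87 (HE2) and 8.39 and 3.21 (HP). Pou5f1 led them in HB and HE1, and none was at 0. All 6 were called lower in HP than in HE1, but only 1 was without HE1 replicate 2, which held most of this RNA, and 1 without HP replicate 1 or HP replicate 2. The 12 extraembryonic endoderm markers summed to 474 and 502 CPM (HB), 387 and 349 (HE1), 169 and 97.8 (HE2) and 79.2 and 85.4 (HP), with Gata4, which is also expressed in mesoderm, as the leading gene in HB and HE1. Their defining genes Afp and Ttr did not pass the filter, and both were at 0 in HE1 replicate 2. In HE1 against HB 2 of 10 tested endoderm markers were higher and 3 lower, and in HP against HE1 5 were lower. The 8 mesoderm and cardiac markers summed to 976 and 1082 CPM in HB and 271 and 246 in HE1, led by Mixl1 in HB and Tbx20 in HE1, with 6 lower in HE1 than in HB.

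The 7 megakaryocyte and platelet markers summed to 20.0 and 19.0 CPM (HB), 503 and 687 (HE1), 1609 and 1891 (HE2) and 2330 and 1693 (HP). Thbs1 led them in HE1 and Itgb3 in HE2 and HP. The 8 myeloid and macrophage markers summed to 17.6 and 16.1 CPM (HB), 58.7 and 29.4 (HE1), 111 and 188 (HE2) and 299 and 168 (HP), led by Mpo in HE2 and HP, with Cx3cr1 at 0 in both HB libraries. Of the 6 tested megakaryocyte markers, 3 were higher in HE1 than in HB, 3 in HE2 than in HE1 and 5 in HP than in HE1, and of the 8 myeloid markers 2, 4 and 6 were, with 1 lower in HP than in HE1. Without HE1 replicate 2 or HP replicate 1, 2 megakaryocyte markers were higher in HP than in HE1. For the myeloid list, 4 were higher in HE1 than in HB without HE1 replicate 2, and none was lower in HP than in HE1 without HE1 replicate 1 or HP replicate 1. The 7 trophoblast markers summed to at most 6.70 CPM in any library, Prl2c2 and Tpbpa were at 0 in all 10, and of 2 tested markers 1 was lower in HE1 than in HB and 1 in HP than in HE1, with none called in either without HE1 replicate 2. The first also ended without HB replicate 1, HB replicate 2 or HE1 replicate 1, and the second without HP replicate 1 or HP replicate 2. In HE1 against HB the median of the trophoblast list was −0.80, with 2 markers tested. With 3 tested, it was 1.20 without HE1 replicate 1 and 0.58 without any single HE2 or HP library. The 4 sort antigens summed to 1134 and 1448 CPM (HB), 2202 and 1211 (HE1), 1946 and 1668 (HE2) and 1159 and 1025 (HP), led by Kdr from HB to HE2 and by Itga2b in HP, with 2 of 4 higher in HE1 than in HB, 2 higher in HE2 than in HE1, and in HP against HE1 2 higher with 2 lower. Only 1 was higher in HE2 than in HE1 without HE1 replicate 2 or HE2 replicate 2, and none in HP than in HE1 without HE1 replicate 2 or HP replicate 1.

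**Figure D4:**
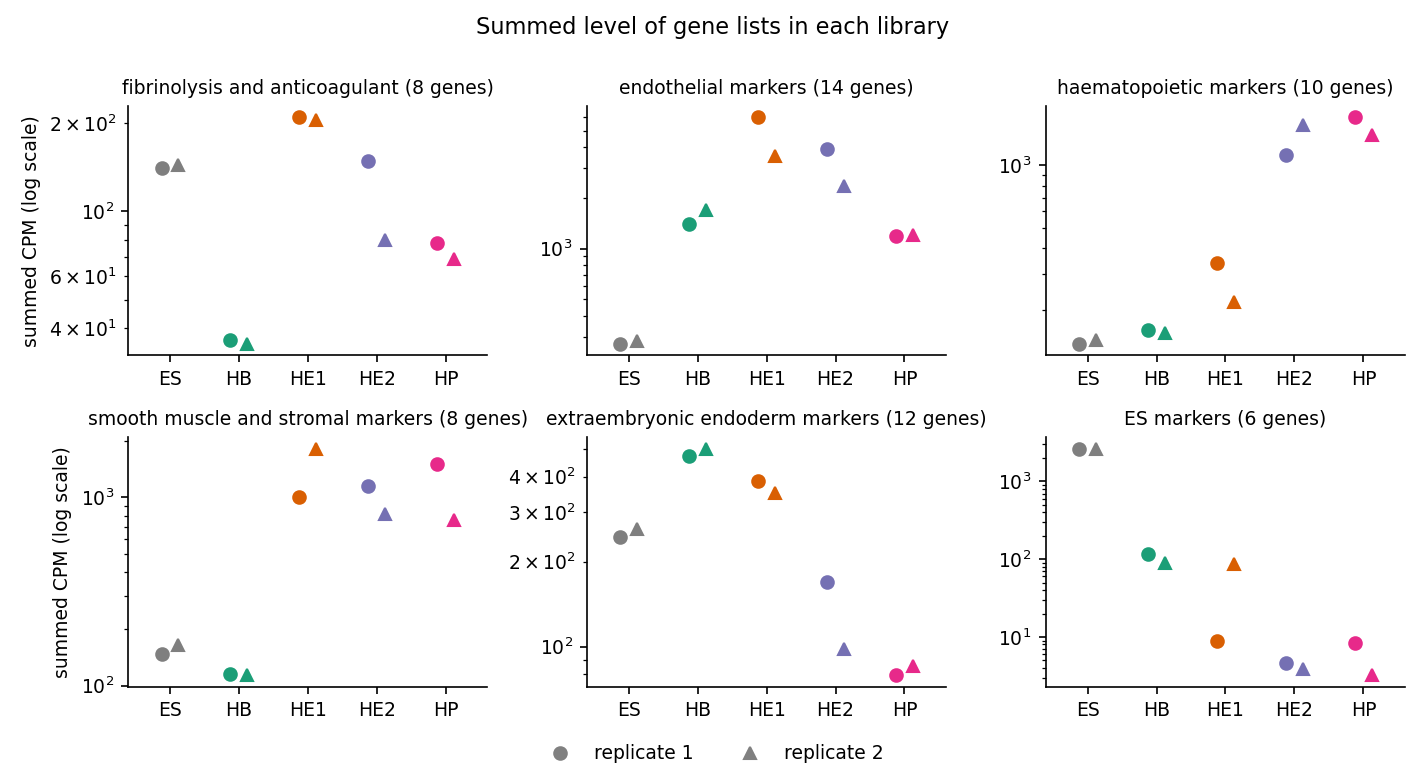
Summed level in CPM (y axes, log scale) of the 8 genes and of 5 marker lists in the libraries of the 5 stages (x axes), with circles for replicate 1 and triangles for replicate 2. The sum of the 8 genes is 209 and 205 CPM in HE1 and 149 and 79.9 in HE2, where the endothelial sums are 3863 and 2340.

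Because the 8 genes rose together in HE1, the promoter sequences held for them were searched for short motifs. Windows of 300 bases, from 250 before to 50 after the annotated start, came from RefSeq on build GRCm38.p6 and were found for 5 of the 8 genes, namely Plaur, Procr, Tfpi, Tfpi2 and F3, with 8 windows in all because Tfpi has 2 starts and Tfpi2 has 3. The letters of 6 motifs were searched on both strands, and no match of one motif overlapped a match of another in these windows. The AP-1 letters TGANTCA were in 4 of the 8 windows, from 4 of the 5 genes, and in 7.81% of 32851 windows of all genes. The SP/KLF letters GGGCGG were in 5 windows (35.7% of all windows), the ETS letters GGAAGT in 3 (23.8%), the RUNX letters TGTGGT in 1 (16.8%), the GATA letters AGATAA in 1 (11.2%) and the TEAD letters GGAATG in none (14.7%). A match describes the letters and does not show that a factor binds, and the RNA data contain no measure of binding. The 4 windows with AP-1 letters are printed 5′ to 3′ on the strand of the gene with these letters in capitals, to show where they lie. They are on chr7:24462233-24462532 (plus strand) for Plaur, chr2:155750967-155751266 (plus strand) for Procr, chr6:3968326-3968625 (minus strand) for Tfpi2, and chr3:121723287-121723586 (plus strand) for F3. The letters begin 69 bases before the start of Plaur, 154 before that of Procr, 77 before the most downstream of the 3 starts of Tfpi2 (chr6:3968375), which lies inside the gene, and 146 and 135 before that of F3. The windows of the other 2 Tfpi2 starts hold none of the 6 motifs.
Plaur: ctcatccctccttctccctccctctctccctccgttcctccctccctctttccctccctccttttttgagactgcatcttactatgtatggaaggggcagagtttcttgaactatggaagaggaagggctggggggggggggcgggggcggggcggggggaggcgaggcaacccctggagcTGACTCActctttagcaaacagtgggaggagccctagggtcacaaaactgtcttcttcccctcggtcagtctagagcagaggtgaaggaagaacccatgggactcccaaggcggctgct
Procr: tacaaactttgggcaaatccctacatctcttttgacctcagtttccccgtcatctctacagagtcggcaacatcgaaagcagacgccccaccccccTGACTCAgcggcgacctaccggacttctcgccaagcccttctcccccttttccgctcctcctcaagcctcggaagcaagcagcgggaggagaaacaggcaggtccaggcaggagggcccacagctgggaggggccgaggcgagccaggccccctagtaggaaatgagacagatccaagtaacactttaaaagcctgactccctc
Tfpi2: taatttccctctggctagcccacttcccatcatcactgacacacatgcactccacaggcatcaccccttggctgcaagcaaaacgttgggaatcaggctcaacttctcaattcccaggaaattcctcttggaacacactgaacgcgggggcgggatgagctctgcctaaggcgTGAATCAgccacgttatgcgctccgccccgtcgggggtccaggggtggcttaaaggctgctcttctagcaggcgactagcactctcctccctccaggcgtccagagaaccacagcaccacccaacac
F3: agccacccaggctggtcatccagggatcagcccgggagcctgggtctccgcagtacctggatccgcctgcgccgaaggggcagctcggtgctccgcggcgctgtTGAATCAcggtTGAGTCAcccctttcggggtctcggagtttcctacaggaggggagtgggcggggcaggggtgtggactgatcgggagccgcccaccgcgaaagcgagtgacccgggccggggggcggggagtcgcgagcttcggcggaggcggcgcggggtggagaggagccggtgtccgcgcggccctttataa

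Neither Tfpi window holds the AP-1 letters. Its upstream window, on chr2:84476710-84477009 (minus strand), is shown for comparison with its 2 ETS matches in capitals, which begin 78 and 52 bases before the start. No relation between motif and change was tested in these 5 genes.
Tfpi: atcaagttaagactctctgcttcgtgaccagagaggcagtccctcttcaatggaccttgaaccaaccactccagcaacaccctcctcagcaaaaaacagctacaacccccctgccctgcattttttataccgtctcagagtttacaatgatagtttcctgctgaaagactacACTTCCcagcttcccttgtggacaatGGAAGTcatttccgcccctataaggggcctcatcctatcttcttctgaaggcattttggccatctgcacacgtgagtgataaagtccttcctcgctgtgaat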

How the data were processed

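Nuclear RNA-seq libraries of 5 stages, 2 per stage, were used as deposited. The authors removed rRNA reads with RiboDetector, trimmed with Trimmomatic, used HISAT2 (v2.2.1) for alignment to mm10, and made a count per gene with featureCounts (v2.0.1) on exons of Ensembl release 102, with strand, counting a fragment on each gene it overlapped; no exon of the 8 genes overlaps another gene on the same strand. These deposited counts are not normalized. The authors also deposited 1 expression score per gene and stage for 15686 genes, near the CPM scale but of uncertain unit, used here for symbols and as an alternative to the levels. The libraries of a stage are described by the study as biologically independent.

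Counts were fitted in edgeR (v4.0.16, R v4.3.3) with TMM factors of 0.954 to 1.13, filterByExpr on stage, and 1 quasi-likelihood model of all 10 libraries with stage as the only term and 5 residual degrees of freedom. P-values were adjusted by the Benjamini-Hochberg method over 22596 genes. Standard errors were derived from the F statistic and intervals are 95%. Log2 CPM used a prior count of 2. The alternatives were limma-voom (limma v3.58.1), DESeq2 (v1.42.0), no filter, library totals without TMM, only the 4 libraries compared, a replicate block, 4-fold, and each library left out. Named partners are Vwf, Pros1, Proc, Plg and F2r, and, per list and comparison, up to 3 called genes with the largest change at 9 CPM or more in a stage from HB to HP; other genes were named after their values were seen. The scripts were tested on simulated counts with 200 genes planted at a log2 fold change of 2, up or down, in HE1 against HB. Of these, edgeR called 58.5%, limma-voom 56% and DESeq2 68%, so that a gene not called may still have changed. Python (v3.11.15) was used for motifs and figures. The 8 genes and all lists were chosen with earlier results of these data known.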

Additional observations from a re-analysis of the deposited data

How the results depend on the processing

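Members called lower in HE2 against HE1 were 1 in the model, 2 in limma-voom, 2 in DESeq2, 2 without the filter, 0 with only the 4 libraries, 0 at 4-fold and 0 to 4 with a library left out. In HP against HE2 they were 0, and 1 in limma-voom, 3 in DESeq2, 4 without the filter and 0 to 4 with a library left out. Log2 fold changes of genes that were not called changed direction: in HE2 against HE1, Plau was −0.074 with library totals and ran from −0.30 (without HE2 replicate 1) to 0.38 (without HE1 replicate 2), Tfpi2 from −2.44 to 0.021 (same libraries) and F3 from −0.64 to 0.40 (without HE1 replicate 1 or 2). In HP against HE2, Plaur was 0.031 in limma-voom and F3 0.018 with library totals; leaving out a library gave Plau −0.14 to 0.79, Plat −1.30 to 0.73, Plaur −0.57 to 0.65 and F3 −0.15 to 0.063. In HP against HE1 Plau ran from −0.080 to 0.85 and F3 from −0.68 to 0.36, and in HP against HB Tfpi2 from −0.36 to 0.90. Of all genes, 1217 were lower in HE2 against HE1, with 2864 without the filter, 766 with a replicate block, 171 with only the 4 libraries and 98 to 2927 with a library left out; in HP against HE2, 0 higher and 0 lower became 35 and 27 in limma-voom, 107 and 194 in DESeq2, and 145 and 389 without the filter. With the replicate block the members called were 8 higher in HE1 against HB (genes called higher 2494), 1 lower in HE2 against HE1 (genes called lower 766), 0 in HP against HE2 (0), 5 lower in HP against HE1 (2137) and 3 higher in HP against HB (2127), and r of same-numbered libraries ranged from −0.316 to 0.213 over 10 stage pairs. The stage means of the members in the authors' matrix were 0.822 to 1.12 times those given here, with the lowest ratio for Tfpi2 in HE2. The means given here are arithmetic. Whether means on a log scale in the matrix account for the ratios was not tested, nor was any other cause. Limits are 2 libraries per stage, 1 cell line and nuclear RNA of sorted mixtures; protein, secretion and activity were not measured. A fit with 1 library in a stage takes its spread from the other stages.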
